A study of Mus musculus with 9 samples.

Results

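Neural crest and dedifferentiated melanoma markers were described in RNA bound to RIG-I, as a set of 10 genes among the 22396 genes counted. The members are the receptors Ngfr, Ntrk2, Ntrk3, Axl and Egfr, the transcription factors Sox9, Sox2, Zeb1 and Zeb2, and the intermediate filament gene Nes. They were selected on what is known of melanoma states and with their measured values in these libraries in view, so their levels in the groups are a description and carry no test. Of the 10, Ntrk2, Egfr and Sox2 had almost no counts in these cells.

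The cells were B16F10, a mouse melanoma line, labelled as wild type and made to express FLAG-tagged RIG-I, a sensor of RNA in the cytoplasm. All groups carried this construct and differed in the shRNA, which was a control (shCtr) or 1 of 2 shRNAs against Osgep (shOSGEP#1 and shOSGEP#2), the gene of an enzyme of the t6A modification of tRNAs. Each group had 3 replicates. RNA that came down with anti-FLAG beads was depleted of ribosomal RNA and sequenced. A value is the portion a gene takes of the counts on the 22396 genes, and the study mapped tRNAs apart. It is therefore not a portion of all RNA that RIG-I bound. None of the libraries was a pulldown without FLAG-RIG-I, so RNA held by the beads alone cannot be told apart. Input RNA was not analysed here. In bulk RNA, fewer cells with a transcript and less of it per cell cannot be told apart, and neither can less RNA in the cell and less of it bound to RIG-I.

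Replicates 1, 2 and 3 of shCtr held 40333037, 47750758 and 41805753 counts, and those of shOSGEP#1 held 34551436, 50224299 and 30697653. For shOSGEP#2 the totals were 25460689 and 14914731 in replicates 1 and 3. Replicate 2 of shOSGEP#2 had only 568995 counts, on 4196 genes, against 11733 to 13958 genes in the other 8 libraries, and it was left out of the fit and is given apart. A floor of 3 counts corresponds to 5.27 CPM (a gene's counts over the library's total, times 1000000) there and to at most 0.201 CPM elsewhere, for counting error only. Mitochondrially encoded genes took 2.96% of the counts in shOSGEP#1 replicate 3 and 0.147% to 0.445% in the other 7 libraries of the fit. The part of this in the results was not tested.

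Osgep, the targeted gene, was at 19.1, 19.9 and 15.5 CPM in shCtr replicates 1, 2 and 3. It was at 3.76, 1.15 and 1.53 CPM in shOSGEP#1 and at 0.0786 and 2.88 CPM in shOSGEP#2 replicates 1 and 3. Each of these shOSGEP libraries lay below each shCtr library. The log2 fold change was −3.10 for shOSGEP#1 (SE 0.73) and −3.84 for shOSGEP#2 (SE 0.93). Its adjusted p in edgeR's quasi-likelihood test was 0.0128 and 0.0150, above the threshold of 0.01, and over all alternatives (edgeR and DESeq2) it ran from 0.000639 to 1.00 and from 0.000838 to 0.719. With 2 and 43 counts in the shOSGEP#2 libraries, the value was −2.78 without replicate 1 and −7.86 without replicate 3. That of shOSGEP#1 was −3.77 without its replicate 1.

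The neural crest is the embryonic source of melanocytes. Melanoma cells can leave the pigmented state for states that resemble neural crest cells or are mesenchymal and invasive, and these are recognised by receptors such as NGFR, AXL and EGFR and by a shift among SOX and ZEB factors. In such states the genes of pigment synthesis are typically low.

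Among the receptors, Ngfr encodes the low-affinity neurotrophin receptor, a marker of neural crest stem cells. It had 1.49, 2.09 and 1.94 CPM in shCtr, 9.87, 14.8 and 11.6 CPM in shOSGEP#1 and 3.42 and 7.24 CPM in shOSGEP#2 replicates 1 and 3. The shOSGEP#1 libraries were the highest, and none of these shOSGEP libraries reached down to the shCtr range. The log2 fold change was 2.70 (SE 0.36) for shOSGEP#1 and 1.42 (SE 0.38) for shOSGEP#2. The latter was 0.83 without shOSGEP#2 replicate 3 and 1.84 without replicate 1.

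Axl encodes a receptor tyrosine kinase of the TAM family and is a widely used marker of the invasive melanoma state. It had 11.4, 8.42 and 6.82 CPM in shCtr, 17.0, 24.7 and 16.5 CPM in shOSGEP#1 and 73.8 and 57.5 CPM in shOSGEP#2 replicates 1 and 3. The 3 groups did not overlap, and shOSGEP#2 was highest. The log2 fold change against shCtr was 1.12 (SE 0.24) for shOSGEP#1 and 2.80 (SE 0.27) for shOSGEP#2, and that of shOSGEP#2 against shOSGEP#1 was 1.68 (SE 0.26).

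Ntrk3 encodes the receptor of neurotrophin-3. It had 7.61, 8.10 and 10.8 CPM in shCtr, 1.42, 0.657 and 1.56 CPM in shOSGEP#1 and 1.18 and 0.939 CPM in shOSGEP#2 replicates 1 and 3. All of these shOSGEP libraries were low, and the ranges of the shRNAs overlapped each other but not that of shCtr. The log2 fold change was −2.89 (SE 0.43) for shOSGEP#1 and −3.14 (SE 0.52) for shOSGEP#2. Ntrk2, the receptor of BDNF, had 4 counts in all 9 libraries together, all in shCtr replicate 2. Egfr, the epidermal growth factor receptor, had 9 counts in shCtr replicate 2, 3 in shOSGEP#2 replicate 1 and 0 in the others, so no difference was detectable at this depth.

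Among the factors, Sox9 is a regulator of neural crest specification. It had 30.3, 39.7 and 34.3 CPM in shCtr, 9.81, 7.86 and 15.0 CPM in shOSGEP#1 and 9.58 and 22.4 CPM in shOSGEP#2 replicates 1 and 3. These shOSGEP libraries all lay below the shCtr libraries, and those of shOSGEP#2 were far apart. On the log2 scale, the fold change was −1.69 (SE 0.32) for shOSGEP#1 and −1.23 (SE 0.36) for shOSGEP#2. The latter was −1.92 without shOSGEP#2 replicate 3, −0.76 without replicate 1 and 0.12 with the shallow library in the fit.

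Zeb2 encodes a repressor that belongs to the melanocyte differentiation programme, whereas its relative Zeb1 is known from the mesenchymal state. Zeb2 had 317, 283 and 347 CPM in shCtr, 314, 339.9 and 410.2 CPM in shOSGEP#1 and 386 and 329 CPM in shOSGEP#2 replicates 1 and 3. The groups overlapped, and the log2 fold change was 0.16 (SE 0.16) for shOSGEP#1 and 0.087 (SE 0.18) for shOSGEP#2. Zeb1 was scarce, with 11, 16 and 14 counts in shCtr, 28, 36 and 21 in shOSGEP#1 and 9 and 15 in shOSGEP#2 replicates 1 and 3. In CPM this was 0.273, 0.335 and 0.335 in shCtr, 0.810, 0.717 and 0.684 in shOSGEP#1 and 0.353 and 1.01 in shOSGEP#2. These shOSGEP libraries lay above shCtr, by little in shOSGEP#2 replicate 1, and the log2 fold changes of 1.21 (SE 0.86) and 0.98 (SE 0.95) had large errors. The value for shOSGEP#2 was 0.10 without its replicate 3 and 1.54 without replicate 1. Sox2, a stem cell factor, had 0 counts in all 9 libraries.

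Nes encodes nestin, an intermediate filament protein of neural progenitors. It had 163, 164 and 80.1 CPM in shCtr, 129.9, 132 and 119.5 CPM in shOSGEP#1 and 87.7 and 144 CPM in shOSGEP#2 replicates 1 and 3. The groups overlapped, since shCtr replicate 3 was the lowest of the 8 libraries. Its log2 fold change was −0.11 (SE 0.26) for shOSGEP#1 and −0.33 (SE 0.29) for shOSGEP#2. For shOSGEP#1 it was 0.041 and 0.051 without shCtr replicate 1 or 2.

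**Figure D1:**
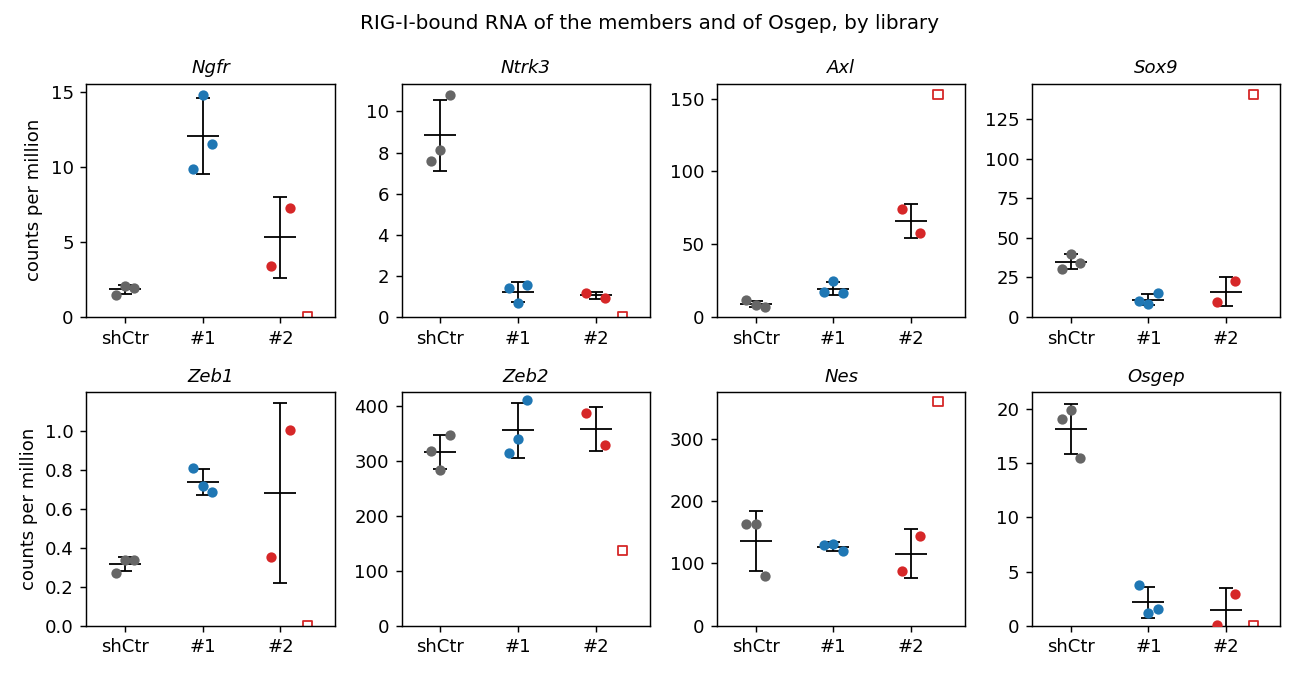
CPM (y axis, linear from 0, with a scale of its own for each gene) of 7 members and Osgep in shCtr, shOSGEP#1 (#1) and shOSGEP#2 (#2). Points are libraries, bars the mean ± SD over the 8 libraries of the fit (the bar of Osgep in #2 runs below the axis), and open squares the shallow library, at 153 CPM for Axl and 0 for Ngfr.

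Of the 10 members, 7 passed the filter on low counts. At an adjusted p under 0.01, 2 members were higher (Ngfr and Axl) and 2 lower (Ntrk3 and Sox9) in shOSGEP#1, where 5.00% and 4.67% of the 12744 tested genes were called in these directions. In shOSGEP#2, 1 was higher (Axl) and 1 lower (Ntrk3), against 5.66% and 3.89% of tested genes. In shOSGEP#2 against shOSGEP#1, 1 was higher (Axl) and 0 lower, against 6.23% and 4.56%. The Ngfr call in shOSGEP#1 held without each library in turn. The Axl calls in shOSGEP#2 and between the shRNAs held without each shCtr or shOSGEP#1 library. Without shOSGEP#2 replicate 1 or 3, Axl was at 2.57 and 2.99 against shCtr and at 1.45 and 1.88 between the shRNAs. Such fits leave 1 shOSGEP#2 library, so their spread comes from the other groups alone, here and for all genes below. For shOSGEP#1, the Axl call was lost without shCtr replicate 1, 2 or 3 or shOSGEP#1 replicate 1, 2 or 3 (log2 fold change 0.90 to 1.33 there), the Sox9 call without shCtr replicate 1, 2 or 3 or shOSGEP#1 replicate 1 or 2 (log2 fold change −1.50 to −1.78 there) and the Ntrk3 call without shCtr replicate 2 (log2 fold change −2.95 there). For shOSGEP#2, the Ntrk3 call was lost without shCtr replicate 2 or 3 or shOSGEP#2 replicate 3 (log2 fold change −2.96 to −3.20 there). Without overlap in CPM with shCtr, 3 members were higher (Ngfr, Axl and Zeb1) and 2 lower (Ntrk3 and Sox9) for each shRNA, against 23.1% and 22.2% of tested genes for shOSGEP#1 and 28.7% and 23.6% for shOSGEP#2. Nothing is read from these counts, since the members were chosen with these contrasts known, and the comparisons share the shCtr libraries.

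Per kilobase of transcript, the order of levels in shCtr was Zeb2 (59.2 ± 5.93 CPM per kb, SD, n = 3), Nes (22.1 ± 7.86), Sox9 (8.40 ± 1.14), Ntrk3 (3.19 ± 0.621), Axl (2.08 ± 0.546), Ngfr (0.534 ± 0.0914) and Zeb1 (0.0542 ± 0.00620), with no overlap between neighbours. In shOSGEP#1, Axl (4.55 ± 1.07 CPM per kb), Ngfr (3.51 ± 0.732) and Sox9 (2.63 ± 0.890) followed Nes, and Ngfr overlapped both Axl and Sox9. In shOSGEP#2, Axl (15.4 ± 2.70 CPM per kb, SD, n = 2) overlapped Nes (18.9 ± 6.48) and lay above Sox9 (3.87 ± 2.19). Zeb2 led the order in each group, followed by Nes.

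Likeness was sought for the 6 members with a mean of at least 1 CPM, which Zeb1 did not reach. Across the 8 libraries, the tested genes whose log2 CPM ran most like that of Ngfr were Alg1 (r = 0.983) and Snn (r = 0.978). For Ntrk3 they were Usp7 (r = 0.985) and Twf1 (r = 0.984), and for Axl C1ra (r = 0.988) and Gramd1b (r = 0.985). For Sox9 they were Pnrc1 (r = 0.988) and Prelid2 (r = 0.977), for Nes Mettl21a (r = 0.930) and Patj (r = 0.895), and for Zeb2 Kin (r = 0.968) and Zfp955a (r = 0.923). These Pearson correlations describe 8 libraries that share 3 group means, and they say nothing of shared function.

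The t6A modification lies next to the anticodon in tRNAs that read codons beginning with A, and the portion of such codons is a sequence feature that did not choose the members. It was 32.2% in Zeb2, 30.2% in Ntrk2, 30.1% in Egfr, 29.6% in Ntrk3 and 29.5% in Sox2. It was 27.0% in Zeb1, 24.7% in Sox9, 22.7% in Ngfr, 21.5% in Axl and 18.8% in Nes, against a median of 26.9% over the 12636 tested genes with a coding sequence. Of these genes, 6.60% lay below Nes, 15.1% below Axl, 20.5% below Ngfr, 32.4% below Sox9, 51.0% below Zeb1, 72.3% below Sox2, 73.6% below Ntrk3, 77.3% below Egfr, 78.2% below Ntrk2 and 89.6% below Zeb2.

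RefSeq promoter windows of 300 bases (250 before to 50 after the transcript start, build GRCm38.p6) were matched to 7 of the 10 members, 10 windows in all. Ntrk3 and Sox9 had no entry. The chromosome of Zeb1 was left out of this match, so whether Zeb1 had a window is not shown. That chromosome is part of the promoters counted for comparison. The windows were searched on both strands for the ZEB-type E-box CAGGTG, for the AP-1 element TGANTCA and for the SOX-type element ACAAAG. Among 32851 promoters, 20.2% hold the E-box, 7.81% the AP-1 element and 18.7% the SOX-type element. Of the 10 windows, 2 held any of them, 1 of Zeb2 and that of Sox2. The windows of Ngfr and Axl are shown because these receptors lay above each shCtr library in the other libraries of the fit, and that of Zeb2 because it held the most matches, printed in capitals. All lie on the minus strand, at chr11:95587649-95587948 (Ngfr), chr7:25788684-25788983 (Axl) and chr2:45110228-45110527 (Zeb2).
Ngfr: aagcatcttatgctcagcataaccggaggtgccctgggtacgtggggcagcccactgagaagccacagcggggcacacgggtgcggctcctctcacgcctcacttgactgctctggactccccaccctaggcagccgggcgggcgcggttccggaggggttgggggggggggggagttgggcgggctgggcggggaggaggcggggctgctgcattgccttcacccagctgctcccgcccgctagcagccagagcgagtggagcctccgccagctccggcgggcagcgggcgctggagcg
Axl: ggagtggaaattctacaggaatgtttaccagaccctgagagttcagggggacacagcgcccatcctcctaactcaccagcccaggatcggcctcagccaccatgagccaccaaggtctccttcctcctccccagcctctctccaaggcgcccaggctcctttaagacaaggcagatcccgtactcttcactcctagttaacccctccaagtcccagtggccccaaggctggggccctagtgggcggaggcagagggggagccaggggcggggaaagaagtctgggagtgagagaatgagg
Zeb2: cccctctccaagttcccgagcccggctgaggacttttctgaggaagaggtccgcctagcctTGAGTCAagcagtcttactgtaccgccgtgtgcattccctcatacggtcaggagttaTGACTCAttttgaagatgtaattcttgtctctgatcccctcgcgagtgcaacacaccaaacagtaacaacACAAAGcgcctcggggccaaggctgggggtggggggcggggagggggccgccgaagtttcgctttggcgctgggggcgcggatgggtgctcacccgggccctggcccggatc
A match is a description and not a bound site.

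The wider lists hold 157 genes of the pathways and programmes around the members, 98 of them tested. In shOSGEP#1, 6 rose and 4 fell (edgeR's quasi-likelihood test, adjusted p under 0.01), and their median log2 fold change was 0.33, against 0.0021 over all tested genes. In shOSGEP#2, 9 rose and 5 fell, with a median of 0.042 against −0.057. Over all genes, 1232 were called for shOSGEP#1 (637 higher, 595 lower) and 1217 for shOSGEP#2 (721 higher, 496 lower). With library totals in place of TMM, the split for shOSGEP#2 was 901 higher and 375 lower. With all 9 libraries in the fit, edgeR called 0 genes for each shRNA (620 and 1240 at an unadjusted p under 0.05), and DESeq2 called 122 and 349. The count for shOSGEP#1 was 427, 318 and 763 without shCtr replicate 1, 2 or 3, and 429 and 724 without shOSGEP#1 replicate 2 or 3. The count for shOSGEP#2 was 584, 518 and 766 without those shCtr libraries and 631 without shOSGEP#2 replicate 3.

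Neurotrophin signalling (17 genes, 12 tested) had log2 fold changes with a median of 0.15 in shOSGEP#1 and −0.23 in shOSGEP#2. Of the ligands, Ntf3 had 0 counts in every library, Bdnf had at most 10 in any library, and Ntf5 had 1.87 to 5.77 CPM in the 8 libraries. Of the coreceptors, Sort1 had 121 to 237 CPM, while Sorcs2, Lingo1 and Rtn4r had at most 105, 2 and 36 counts in a library. Kidins220, a scaffold of neurotrophin receptors, had 82.3 to 101 CPM in shCtr and 135 to 236 CPM in shOSGEP#1, where it rose (log2 fold change 0.97, SE 0.20, edgeR adjusted p = 0.00651). Traf6, a ubiquitin ligase that binds NGFR, fell in shOSGEP#1 (−0.97, SE 0.13, edgeR adjusted p = 0.000847). The shOSGEP#2 values were 0.59 for Kidins220 (SE 0.22, edgeR adjusted p = 0.0775) and −0.60 for Traf6 (SE 0.15, edgeR adjusted p = 0.0160). In shOSGEP#2, edgeR called 0 genes of the list, with 7 at an unadjusted p under 0.05. The Kidins220 call was lost without shCtr replicate 1, 2 or 3 or shOSGEP#1 replicate 2 or 3 (highest edgeR adjusted p 0.0353). The most abundant gene was Arhgdia, at 904 to 1644 CPM.

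TAM receptor signalling (9 genes, 7 tested) had a median of 0.89 in shOSGEP#1 and 0.60 in shOSGEP#2. The AXL ligand Gas6 had 0 counts in every library. Pros1, a ligand of the relatives of AXL, had 11.4 to 18.3 CPM in shCtr, 17.0 to 38.8 CPM in shOSGEP#1 and 31.9 and 48.8 CPM in shOSGEP#2. Adam10 and Adam17 encode proteases that shed membrane proteins, AXL among them. Adam10, the most abundant gene of the list, rose in shOSGEP#1 (1.06, SE 0.21, edgeR adjusted p = 0.00527), a call lost without shCtr replicate 1 or 2 or shOSGEP#1 replicate 2 or 3 (highest edgeR adjusted p 0.0341). Its shOSGEP#2 value was 0.47 (SE 0.23, edgeR adjusted p = 0.166). The shOSGEP#1 value of Adam17 was 0.73 (SE 0.21, edgeR adjusted p = 0.0279). Adam17 rose in shOSGEP#2 (1.33, SE 0.23, edgeR adjusted p = 0.00231), a call lost without shCtr replicate 1 or 2 or shOSGEP#2 replicate 3 (highest edgeR adjusted p 0.0223).

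ErbB receptor signalling (22 genes, 16 tested) had a median of 0.49 in shOSGEP#1 and 0.81 in shOSGEP#2. Of the EGFR ligands, Areg and Ereg had 0 counts in all 9 libraries, and Btc and Epgn had at most 2 and 7 counts in a library. Tgfa had 17.2 to 40.2 CPM, Hbegf 2.38 to 8.37 CPM and Egf 0.554 to 2.95 CPM in the 8 libraries. Erbb2, a partner receptor of EGFR, rose in shOSGEP#2 (1.00, SE 0.20, edgeR adjusted p = 0.00589), as did Gab1, an adaptor of receptor signalling (1.08, SE 0.15, edgeR adjusted p = 0.000839). The shOSGEP#1 values were 0.50 for Erbb2 (SE 0.18, edgeR adjusted p = 0.0751) and 0.43 for Gab1 (SE 0.14, edgeR adjusted p = 0.0460). In shOSGEP#1, edgeR called 0 genes of the list, with 7 at an unadjusted p under 0.05. The Erbb2 call was lost without shCtr replicate 1, 2 or 3 or shOSGEP#2 replicate 1 or 3 (highest edgeR adjusted p 0.0301). The most abundant gene was Cbl, at 102 to 279 CPM.

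The SOX family list (14 genes, 7 tested) had a median of 0.074 in shOSGEP#1 and −0.44 in shOSGEP#2. Sox10, the neural crest and melanocyte factor and the most abundant of the list, had 884, 824 and 890.2 CPM in shCtr, 875, 862 and 972 CPM in shOSGEP#1 and 417 and 514 CPM in shOSGEP#2. It fell in shOSGEP#2 (−0.99, SE 0.16, edgeR adjusted p = 0.00158), and so did Sox11 (−1.37, SE 0.23, edgeR adjusted p = 0.00200). Both differed between the shRNAs (edgeR adjusted p = 0.00101 and 0.000559), and in shOSGEP#1 edgeR called 0 genes of the list, with 2 at an unadjusted p under 0.05. In the shallow library Sox10 was at 1089.6 CPM, above each shCtr library. The Sox10 call was lost without shOSGEP#2 replicate 1 (edgeR adjusted p = 0.0101), and the Sox11 call without shOSGEP#2 replicate 1 or 3 (highest edgeR adjusted p 0.0199).

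EMT factors, their partners and epithelial targets (24 genes, 12 tested) had a median of 0.020 in shOSGEP#1 and −0.13 in shOSGEP#2, and Snai3, Twist1, Twist2, Foxc2, Ovol2, Crb3 and Cldn7 were at 0 counts in the 8 libraries. Fn1, which encodes fibronectin, had 46.4, 34.4 and 21.1 CPM in shCtr, 89.4, 110.0 and 86.1 CPM in shOSGEP#1 and 255 and 157 CPM in shOSGEP#2. It rose in shOSGEP#1 (1.48, SE 0.28, edgeR adjusted p = 0.00407) and in shOSGEP#2 (2.52, SE 0.30, edgeR adjusted p = 0.000362). Cdh2, which encodes N-cadherin, rose in shOSGEP#2 (0.96, SE 0.21, edgeR adjusted p = 0.00866), and Ctbp1, a corepressor that binds ZEB factors, fell in shOSGEP#1 (−1.22, SE 0.18, edgeR adjusted p = 0.00132). The shOSGEP#1 value of Cdh2 was 0.69 (SE 0.19, edgeR adjusted p = 0.0256). For Ctbp1 the shOSGEP#2 value was −0.071 (SE 0.20, edgeR adjusted p = 0.829). The shOSGEP#1 call of Fn1 was lost without shCtr replicate 2 or 3 or shOSGEP#1 replicate 2 or 3 (highest edgeR adjusted p 0.0223). The Cdh2 call was lost without shCtr replicate 1, 2 or 3 or shOSGEP#1 replicate 2 or shOSGEP#2 replicate 1 or 3 (highest edgeR adjusted p 0.0404). Vim was the most abundant gene, at 1686 to 2736 CPM.

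Neural crest regulators and markers (34 genes, 20 tested) had a median of 0.66 in shOSGEP#1 and 0.15 in shOSGEP#2, and Pax7, Foxd3, Tfap2c, Msx1, Msx2, Kit, Cdh7 and Gap43 were at 0 counts in the 8 libraries. Itga4, an integrin subunit of migrating cells, had 52.1, 63.3 and 99.2 CPM in shCtr, 359.8, 584 and 939 CPM in shOSGEP#1 and 42.6 and 46.9 CPM in shOSGEP#2. It rose in shOSGEP#1 (3.12, SE 0.35, edgeR adjusted p = 0.000322), and the shOSGEP#2 value was −0.77 (edgeR adjusted p = 0.157). Ets1, the most abundant of the list, had 927, 922 and 891 CPM in shCtr, 1242, 1145 and 1181 CPM in shOSGEP#1 and 343 and 433 CPM in shOSGEP#2. It fell in shOSGEP#2 (−1.33, SE 0.16, edgeR adjusted p = 0.000302), and the shOSGEP#1 value was 0.37 (SE 0.13, edgeR adjusted p = 0.0707). Nrcam, an adhesion molecule, rose in shOSGEP#1 (1.27, SE 0.22, edgeR adjusted p = 0.00261), and Tfap2a, a factor of neural crest induction, fell there (−1.06, SE 0.19, edgeR adjusted p = 0.00295). Id1 rose in shOSGEP#2 (2.23, SE 0.39, edgeR adjusted p = 0.00282), and its shOSGEP#1 value was 1.40 (SE 0.36, edgeR adjusted p = 0.0187). For Tfap2a the shOSGEP#2 value was −0.81 (SE 0.21, edgeR adjusted p = 0.0196). That of Nrcam ran from 0.38 to 0.78 over the fits without each library in turn. The Nrcam call was lost without shCtr replicate 1 or 2 or shOSGEP#1 replicate 2 (highest edgeR adjusted p 0.0192), the Tfap2a call without shOSGEP#1 replicate 2 (edgeR adjusted p = 0.0185) and the Id1 call without shCtr replicate 1 or 2 (highest edgeR adjusted p 0.0116).

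For the intermediate filament partners of nestin (8 genes, 5 tested), edgeR called 0 genes with either shRNA (2 and 1 at an unadjusted p under 0.05), and the medians were 0.015 and 0.032. Ina and Nefm were at 0 counts, and Vim was the most abundant.

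Dedifferentiated and invasive melanoma markers (30 genes, 20 tested) had a median of 0.32 in shOSGEP#1 and 0.29 in shOSGEP#2, and Wnt5a, Ror1, Ror2, Tnc and Nt5e were at 0 counts in the 8 libraries. Met, the receptor of hepatocyte growth factor, had 53.1, 56.9 and 90.3 CPM in shCtr, 14.8, 15.9 and 20.5 CPM in shOSGEP#1 and 20.9 and 24.5 CPM in shOSGEP#2. It fell in shOSGEP#1 (−1.98, SE 0.23, edgeR adjusted p = 0.000406) and in shOSGEP#2 (−1.66, SE 0.27, edgeR adjusted p = 0.00173). Sparc, a matrix protein gene and the most abundant of the list, rose in shOSGEP#1 (0.99, SE 0.18, edgeR adjusted p = 0.00346). In shOSGEP#2, Pdgfrb, a growth factor receptor (2.10, SE 0.34, edgeR adjusted p = 0.00167), Tead1, a factor of the Hippo pathway (1.08, SE 0.19, edgeR adjusted p = 0.00244), and Plaur, the urokinase receptor (1.45, SE 0.32, edgeR adjusted p = 0.00876), rose. Without each library in turn, the shOSGEP#1 values were 0.50 to 0.81 for Pdgfrb, 0.27 to 0.44 for Tead1 and −0.21 to 0.24 for Plaur. The shOSGEP#2 values of Sparc were 0.46 to 0.55. Aldh1a3, an enzyme of retinoic acid synthesis, had 5.38, 3.73 and 7.46 CPM in shCtr, 11.7, 12.1 and 18.8 CPM in shOSGEP#1 and 1.89 and 1.21 CPM in shOSGEP#2. It fell in shOSGEP#2 (−1.90, SE 0.42, edgeR adjusted p = 0.00967), and the shOSGEP#1 value was 1.35 (SE 0.34, edgeR adjusted p = 0.0169). The shOSGEP#2 call of Met was lost without shOSGEP#2 replicate 1 or 3 (highest edgeR adjusted p 0.0126), and that of Pdgfrb without shOSGEP#2 replicate 3 (edgeR adjusted p = 0.0130). In the shallow library Tead1 was at 102 CPM, below each shCtr library (174 to 195 CPM). The Tead1 call was lost without shCtr replicate 1 or 2 or shOSGEP#2 replicate 1 (highest edgeR adjusted p 0.0178), and the Sparc call without shCtr replicate 1, 2 or 3 or shOSGEP#1 replicate 2 (highest edgeR adjusted p 0.0248). The Plaur call was lost without shCtr replicate 1, 2 or 3 or shOSGEP#1 replicate 2 or 3 or shOSGEP#2 replicate 1 or 3 (highest edgeR adjusted p 0.0579). The Aldh1a3 call was lost without shCtr replicate 1, 2 or 3 or shOSGEP#1 replicate 1 or 2 or shOSGEP#2 replicate 1 or 3 (highest edgeR adjusted p 0.0579).

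**Figure D2:**
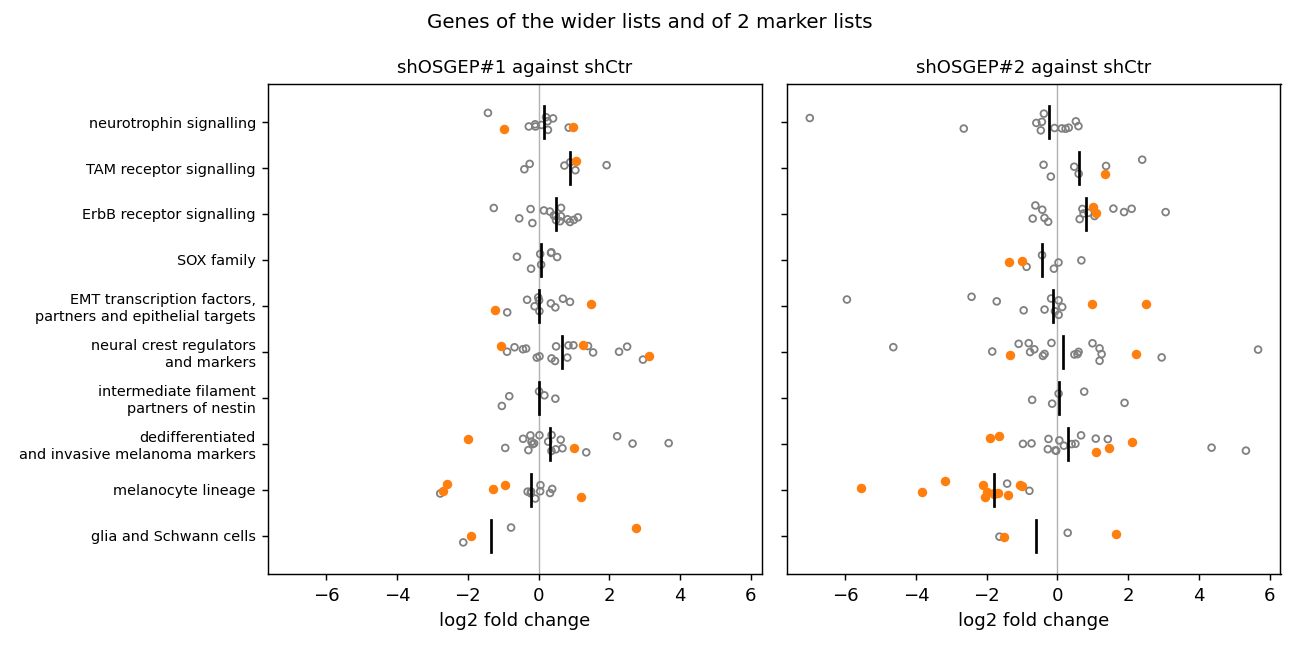
Log2 fold changes against shCtr (x axis) of the tested genes of the wider lists and of the melanocyte and glial marker lists (y axis, with points spread at random within a list). Filled points passed edgeR's test at an adjusted p under 0.01, open points did not, and the vertical bar is the list's median, −0.21 for melanocyte markers in shOSGEP#1 and −1.80 in shOSGEP#2.

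The labelled cell type was checked by its markers. Each of the 15 melanocyte markers had a count in at least 1 of the 8 libraries, with Gpnmb the most abundant. Their summed level was 9782, 9000.2 and 11949 CPM in shCtr, 11193, 14413 and 13056 CPM in shOSGEP#1 and 3942 and 4901 CPM in shOSGEP#2 replicates 1 and 3. In shOSGEP#2, 12 of the 14 tested markers fell and 0 rose (edgeR, adjusted p under 0.01), and in shOSGEP#1 4 fell and 1 rose. Gpnmb rose in shOSGEP#1 (1.20, SE 0.17, edgeR adjusted p = 0.000944) and fell in shOSGEP#2 (−1.05, SE 0.19, edgeR adjusted p = 0.00314), and the latter call was lost without shCtr replicate 1 or shOSGEP#2 replicate 1 or 3 (highest edgeR adjusted p 0.0165). Tyr, which encodes tyrosinase, had 153, 153 and 193 CPM in shCtr, 30.4, 26.1 and 27.3 CPM in shOSGEP#1 and 5.93 and 19.8 CPM in shOSGEP#2. It fell in shOSGEP#1 (−2.59, SE 0.32, edgeR adjusted p = 0.000560) and in shOSGEP#2 (−3.83, SE 0.41, edgeR adjusted p = 0.000213), where it was at −3.20 without replicate 1 and −4.87 without replicate 3. Trpm1, a melanocyte channel gene, also fell in both (shOSGEP#1: −2.70, SE 0.37, edgeR adjusted p = 0.000919, and shOSGEP#2: −3.19, SE 0.45, edgeR adjusted p = 0.000821), with −4.04 without shOSGEP#2 replicate 3. In shOSGEP#2, the melanosome genes Pmel (−2.06, SE 0.28, edgeR adjusted p = 0.000592), Dct (−2.00, SE 0.17, edgeR adjusted p = 0.000121), Rab27a (−2.09, SE 0.21, edgeR adjusted p = 0.000180) and Oca2 (−5.56, SE 0.96, edgeR adjusted p = 0.00244) fell. The shOSGEP#1 value of Dct was 0.39 (SE 0.14, edgeR adjusted p = 0.0796). Without each library in turn, the shOSGEP#1 values were −3.27 to −2.37 for Oca2, −0.41 to −0.10 for Rab27a and −0.25 to 0.049 for Pmel. In shOSGEP#2 replicates 1 and 3, Oca2 had 8 and 0 counts, and its call was lost without shCtr replicate 1, 2 or 3 (highest edgeR adjusted p 0.0110). Its value was −11.29 without shOSGEP#2 replicate 1, a fold over the 1 library at 0 counts, and −4.78 without replicate 3. The part of these markers in the members' values was not tested.

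Glial and Schwann cell markers (4 of 5 with counts, Mbp the most abundant, Mag at 0) summed to 1053, 1020.3 and 1593 CPM in shCtr, 656, 649.5 and 782 CPM in shOSGEP#1 and 1221 and 1697 CPM in shOSGEP#2. Pmp22, a myelin gene, rose in shOSGEP#1 (2.76, SE 0.27, edgeR adjusted p = 0.000193) and in shOSGEP#2 (1.66, SE 0.29, edgeR adjusted p = 0.00243), and the latter call was lost without shCtr replicate 1 or 2 or shOSGEP#2 replicate 3 (highest edgeR adjusted p 0.0141). S100b fell in shOSGEP#1 (−1.92, SE 0.15, edgeR adjusted p = 8.70e-05) and in shOSGEP#2 (−1.50, SE 0.17, edgeR adjusted p = 0.000288).

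Markers of other cell types were summed in the same way. Neuron markers (4 of 6 with counts, Elavl3 the most abundant, Snap25 and Elavl4 at 0) summed to 0.471, 0.419 and 1.15 CPM in shCtr, 0.260, 0.0398 and 0 CPM in shOSGEP#1 and 0.825 and 0 CPM in shOSGEP#2. Fibroblast markers (6 of 7, Col1a2 the most abundant, Lum at 0) summed to 3.50, 4.92 and 6.72 CPM in shCtr, 4.63, 2.05 and 5.90 CPM in shOSGEP#1 and 12.1 and 38.2 CPM in shOSGEP#2, the group in which Axl was highest. Col1a1 and Col1a2 had log2 fold changes of 2.06 (SE 0.56, edgeR adjusted p = 0.0250) and 2.31 (SE 0.63, edgeR adjusted p = 0.0249) there. Immune cell markers (6 of 7, Cd68 the most abundant, Itgam at 0) summed to 1.53 to 5.50 CPM in the 8 libraries. Keratinocyte markers (2 of 6, Trp63 the most abundant, Krt5, Krt1, Krt10 and Dsg3 at 0) summed to at most 0.195 CPM, and endothelial markers (4 of 4, Pecam1 the most abundant) to 0.199 to 2.18 CPM. Their part in the members' values was not tested.

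In the shallow library, shOSGEP#2 replicate 2, Axl had 87 counts, Sox9 80, Nes 205 and Zeb2 78, and the other 6 members had 0. Of the 7 tested members, 3 stood above each shCtr library in CPM (Axl, Sox9 and Nes) and 4 below (Zeb2, and Ngfr, Ntrk3 and Zeb1 at 0), against 19.8% and 75.5% of the tested genes. Of all tested genes, 67.2% had 0 counts in it. At the mean level of replicates 1 and 3, 37.4 counts of Axl, 9.10 counts of Sox9, 65.9 counts of Nes and 203 counts of Zeb2 would stand there, and 3.03 counts of Ngfr. Ddx58, which encodes RIG-I, had 0 counts in it against 402 and 429 CPM in replicates 1 and 3. Counts on Ddx58 may come from the FLAG-tagged construct, the cells' own gene or both, which cannot be told apart here. In the main fit, the log2 fold change of Ddx58 was 0.86 for shOSGEP#2 (SE 0.23, edgeR adjusted p = 0.0239). For shOSGEP#1 it was 0.26 (SE 0.21, edgeR adjusted p = 0.427). The part of this in the members' values was not tested.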

How the data were processed

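RIG-I-bound RNA was sequenced in 9 libraries. Per the study's methods and the submitters' processing notes, the authors trimmed reads (Trim Galore), aligned them with STAR to GRCm39, ran Salmon, and deposited counts per gene as whole numbers that were not normalized. The library protocol was a stranded one and the annotation that of Ensembl, but how the deposited genes were selected and whether counting used strand are not stated. Ntrk2, Ntrk3, Egfr, Zeb1 and Zeb2 overlap annotated genes on the other strand. Ntrk2, Ntrk3, Sox2, Zeb1 and Zeb2 overlap others on the same strand. The counts of these members are uncertain to that extent.

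The members and lists were chosen with earlier results of these data known. Symbols were matched to 22237 of 22396 identifiers, and transcript lengths and codons came from GENCODE for GRCm38, by identifier. The 8 libraries other than shOSGEP#2 replicate 2 were fitted with edgeR 4.0.16 (R 4.3.3), using TMM, filterByExpr, the quasi-likelihood test with a coefficient per group and no covariates, and Benjamini-Hochberg adjustment over 12744 genes at 0.01, after a check on simulated counts. Standard errors (SE) are the log2 fold change over the root of F. The p-values set a difference between groups against the spread of these libraries within groups, estimated with all groups and genes together. From each list, the genes called were named, up to 6 by size of the log2 fold change, with the most abundant gene, ligands and coreceptors. This rule was extended to melanocyte and glial markers after their values were seen. All listed genes were compared between the shRNAs and with the shallow library. Some planned list genes are not reported here. Alternatives were DESeq2 1.42.0, RLE factors, library totals, no filter, at least 10 counts in every library, all 9 libraries, the replicate block, only the groups compared, an adjusted p under 0.05, a prior count of 2 for the members, and leaving out each library. Plots were made with matplotlib 3.10.9.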

Additional observations from a re-analysis of the deposited data

Results flagged for a closer look

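Of 127 tested genes, the listed ones and Osgep, 18 differed between the shRNAs in edgeR's quasi-likelihood test of shOSGEP#2 against shOSGEP#1 (adjusted p under 0.01). Of these, 5 were higher and 13 lower in shOSGEP#2, where 6.23% and 4.56% of all tested genes were. The latter are 794 and 581 genes, and 915 and 476 with library totals in place of TMM. In the wider lists, the log2 fold change was below 0 for Cbl (−1.19), Sox10 (−1.04), Sox11 (−1.72), Ets1 (−1.70), Itga4 (−3.89) and Aldh1a3 (−3.25), and above 0 for Ctbp1 (1.15) and Plaur (1.43). Among the melanocyte markers it was below 0 for Dct (−2.38), Pmel (−1.97), Mlana (−1.46), Slc45a2 (−2.01), Slc24a5 (−0.84), Gpnmb (−2.25) and Rab27a (−1.78). Of these, Gpnmb was called in opposite directions against shCtr with the 2 shRNAs. Among markers of other cell types it was above 0 for Mbp (1.07), Col1a1 (2.66) and Col1a2 (2.85). Without each library in turn, 11 of the calls held and 7 did not. The lost calls were Cbl without shOSGEP#2 replicate 1 (edgeR adjusted p = 0.0103), Ctbp1 without shOSGEP#2 replicate 3 (edgeR adjusted p = 0.0169) and Plaur without shCtr replicate 1 or 2 or shOSGEP#1 replicate 1, 2 or 3 or shOSGEP#2 replicate 1 or 3 (highest edgeR adjusted p 0.0594). The others were Slc24a5 without shCtr replicate 1, 2 or 3 or shOSGEP#1 replicate 1 or 2 or shOSGEP#2 replicate 1 or 3 (highest edgeR adjusted p 0.0539), Mbp without shCtr replicate 1 or 2 or shOSGEP#1 replicate 1, 2 or 3 or shOSGEP#2 replicate 3 (highest edgeR adjusted p 0.0731), Col1a1 without shCtr replicate 1 or 2 or shOSGEP#1 replicate 1, 2 or 3 or shOSGEP#2 replicate 3 (highest edgeR adjusted p 0.0801) and Col1a2 without shCtr replicate 1 or 2 or shOSGEP#1 replicate 1, 2 or 3 or shOSGEP#2 replicate 3 (highest edgeR adjusted p 0.0857). Col1a1 was at 1.73 without shOSGEP#2 replicate 3 and Col1a2 was at 2.04 without shOSGEP#2 replicate 3.

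The shallow library of shOSGEP#2 replicate 2 was left out of the main fit and entered only the alternatives with all 9 libraries. In it, 3 members stood above each shCtr library, Axl at 153 CPM, Sox9 at 141 CPM and Nes at 360.3 CPM. Of the 127 genes, 21 stood above each shCtr library there and 92 below, with 79 at 0 counts. Of all tested genes, 19.8% stood above and 75.5% below, with 67.2% at 0. Of the genes above, Sox9 and Sox10 were below each shCtr library in the other 2 libraries of that group. The listed genes above were Sh2b1 at 165 CPM, Maged1 at 814 CPM, Pros1 at 144 CPM, Hbegf at 96.7 CPM, Erbb2 at 66.8 CPM, Gab1 at 559 CPM and Sos1 at 151 CPM, as well as Sox4 at 525 CPM, Sox10 at 1089.6 CPM, Tcf4 at 209 CPM, Cdh2 at 249.6 CPM, Fn1 at 134 CPM, Id1 at 36.9 CPM and Myc at 341 CPM. The rest were Lmo4 at 132 CPM, Des at 82.6 CPM, Fosl2 at 127 CPM, Tead4 at 116 CPM, Sparc at 2561 CPM, Kdm5b at 230.2 CPM and Col1a1 at 68.5 CPM. The cause was not tested. Groups of 3 were not tested for single outlying libraries.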

How the results depend on the processing

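The numbers of genes called at an adjusted p under 0.01 depended on the libraries in the fit. With all 9, edgeR called 0 genes in shOSGEP#1 against shCtr, in shOSGEP#2 against shCtr and in shOSGEP#2 against shOSGEP#1, and 0 listed genes for each shRNA. At an unadjusted p under 0.05 it gave 620, 1240 and 1325 genes, and 10 and 22 listed genes. DESeq2 called 122, 349 and 413 genes (2 and 5 listed genes) with all 9 libraries and 2419, 2405 and 2592 (24 and 26) with 8. An adjusted p under 0.05 gave 2797, 2674 and 2952 genes (27 and 28). Without a filter, 18 listed genes were called for shOSGEP#1, and 737 genes differed between the shRNAs when only these groups were fitted. Leaving out each of the 8 libraries gave 318 to 1458, 518 to 1471 and 743 to 1504 genes, and 4 to 13 and 6 to 16 listed genes. The common dispersion was 0.0692 with 8 libraries and 0.420 with 9. The cause of these changes was not tested.

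The labels give the groups the same replicate numbers but do not say what a number marks. The study describes the replicates as separate experiments, and the numbers were not taken as pairs. Deviations from group means correlated at −0.00337 to 0.180 between libraries of the same number (mean 0.0809), with 3 of 7 such pairs over 0.1, and at −0.180 to 0.144 between others (mean −0.0398). Of the 8 libraries, 6 correlated best with one of their own number. Deviations within a group sum to 0, so the values of the 2 kinds of pair are not independent. In shOSGEP#2, with 2 libraries, the deviations mirror each other. With the replicate block, 1380, 1238 and 1393 genes were called (11 and 16 listed genes). With the block and all 9 libraries, chosen after seeing the data, edgeR called 0 in each (407, 787 and 842 genes, and 5 and 15 listed genes, at an unadjusted p under 0.05).

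Of 38 calls against shCtr of the listed genes named in the report, 18 held without each library in turn and 20 did not. The replicate block lost 1 of the 38 and added 1 call. RLE factors and library totals each lost 1, and fitting only the groups compared lost 2. The log2 fold changes that reversed had not passed the threshold. With the block and all 9 libraries these were Kidins220 (−0.30) and Nrcam (−0.34, and −0.011 in DESeq2 with 9) in shOSGEP#2, and Plaur (−0.016) and Pmel (0.013) in shOSGEP#1. With library totals, Ctbp1 was at 0.026 in shOSGEP#2. Leaving out a library gave −0.0098 to 0.078 for Sox10, −0.21 to 0.24 for Plaur and −0.25 to 0.049 for Pmel in shOSGEP#1, and −0.18 to 0.063 for Ctbp1 in shOSGEP#2. The cause was not tested.

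Some members' values changed sign. In shOSGEP#2 with all 9 libraries, Sox9 was at 0.12 in edgeR and 0.19 in DESeq2, Nes at 0.10, 0.13 and, with the block, 0.090, and Zeb2 at −0.31, −0.34 and −0.46. Zeb2 was also at −0.071 without shOSGEP#2 replicate 1. In shOSGEP#1, Nes was at 0.041 and 0.051 without shCtr replicate 1 or 2. Zeb1, Ntrk2 and Egfr had few counts and Sox2 had 0, and shOSGEP#2 rests on 2 libraries.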
